A study of Mus musculus with 12 samples.

Results

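Axon guidance ligands and receptors were examined at the promoters of the mouse embryonic forebrain (stage E12.5). Members were the promoter windows whose gene symbol belongs to the semaphorins (classes 3 to 7), ephrins, Slits, netrins and netrin-Gs, or to their plexin, neuropilin, Eph, Robo, Unc5 and Dcc receptors. There were 71 members, 37 ligands and 34 receptors, of 55385 windows, each member with 1 window of 2 kb around an annotated start site. Forebrain tissue of the strain C57BL/6, labelled untreated, came from wild type embryos and from embryos labelled EedcKO, a conditional knockout of Eed by its name. The driver of the deletion, the deleted part of Eed, and the number and sex of the embryos are not stated by the sources used here. Eed and an input were measured by chromatin immunoprecipitation from cross-linked chromatin (X-ChIP). The second assay, for RNA polymerase II (RNA-Pol2), H3K27ac, H3K27me3 and an IgG control, was CUT&Tag, in which a transposase tethered to the antibody cuts the DNA beside it. Each genotype had 1 library of each kind, 12 in all, so each difference is between 2 libraries, has no replicate check and carries no p-value.

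Guidance cues tell growing axons and migrating neurons where to go. Secreted or membrane-bound ligands are read by receptors on the growth cone, which turn the cue into attraction, repulsion or adhesion, and in the forebrain they steer the thalamocortical, callosal and commissural tracts. Many of these genes are developmental genes with CpG-rich promoters, the kind of promoter at which Polycomb repressive complex 2 (PRC2) is often found. PRC2 places H3K27me3, a mark of repressed genes, and Eed is its subunit that binds this mark and is needed for methylation. H3K27ac marks active promoters and enhancers, and it cannot sit on the same lysine as H3K27me3.

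The promoter sequences of 3 pairs of neighbouring members are shown because the members of each pair differed strongly in H3K27me3 while lying close together on 1 chromosome. Each run is the 250 bases before the RefSeq start site (assembly GRCm38.p6, the mm10 coordinates), 5′ to 3′ on the gene's own strand, with every CpG dinucleotide in capitals. The positions are chr9:37433176-37433425 (minus strand) for Robo3 and chr9:37401722-37401971 (plus strand) for Robo4. They are chr3:89322940-89323189 for Efna3, chr3:89338029-89338278 for Efna4, chr4:136956817-136957066 for Epha8 and chr4:136836013-136836262 for Ephb2, all on the minus strand. The first of each pair carried the higher H3K27me3 signal.
Robo3: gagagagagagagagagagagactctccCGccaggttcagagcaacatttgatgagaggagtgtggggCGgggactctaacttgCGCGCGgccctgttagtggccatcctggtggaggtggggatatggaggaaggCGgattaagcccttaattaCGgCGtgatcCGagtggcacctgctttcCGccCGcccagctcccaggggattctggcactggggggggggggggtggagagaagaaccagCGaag
Robo4: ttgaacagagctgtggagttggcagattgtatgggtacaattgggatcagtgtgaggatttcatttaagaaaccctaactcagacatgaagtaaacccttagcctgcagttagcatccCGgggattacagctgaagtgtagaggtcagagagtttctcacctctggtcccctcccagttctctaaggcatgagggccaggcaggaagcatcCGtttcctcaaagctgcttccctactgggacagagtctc
Efna3: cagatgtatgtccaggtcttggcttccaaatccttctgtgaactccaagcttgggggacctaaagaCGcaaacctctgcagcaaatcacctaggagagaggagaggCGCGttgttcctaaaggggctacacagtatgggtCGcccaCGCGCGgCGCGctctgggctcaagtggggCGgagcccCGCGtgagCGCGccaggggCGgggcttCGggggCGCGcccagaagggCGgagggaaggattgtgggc
Efna4: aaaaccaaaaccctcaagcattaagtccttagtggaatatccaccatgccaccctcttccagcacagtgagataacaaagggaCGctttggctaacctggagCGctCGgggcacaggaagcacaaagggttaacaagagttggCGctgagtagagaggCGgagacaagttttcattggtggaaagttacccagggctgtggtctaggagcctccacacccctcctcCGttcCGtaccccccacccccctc
Epha8: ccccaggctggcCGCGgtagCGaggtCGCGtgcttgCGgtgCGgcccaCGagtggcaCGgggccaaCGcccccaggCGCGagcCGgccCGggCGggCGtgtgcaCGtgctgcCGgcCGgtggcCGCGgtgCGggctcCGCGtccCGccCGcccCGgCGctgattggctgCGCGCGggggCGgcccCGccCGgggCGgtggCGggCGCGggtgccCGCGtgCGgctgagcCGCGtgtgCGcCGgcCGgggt
Ephb2: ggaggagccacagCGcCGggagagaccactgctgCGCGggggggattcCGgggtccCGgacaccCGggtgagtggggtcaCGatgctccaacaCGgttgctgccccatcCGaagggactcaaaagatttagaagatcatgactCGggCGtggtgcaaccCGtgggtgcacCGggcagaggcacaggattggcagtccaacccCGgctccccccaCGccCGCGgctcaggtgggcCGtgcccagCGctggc
In these runs Robo3 had 12 CpG and Robo4 had 2, Efna3 had 19 and Efna4 had 7, and Epha8 had 46 and Ephb2 had 20. The member with more H3K27me3 had more CpG in all 3 pairs, which were picked for their difference in H3K27me3.

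Guidance promoters were rich in CpG as a group. A RefSeq start site lay inside the window of 56 of the 71 members. Another 5 had one only outside it, and 10 had no RefSeq promoter entry, so their windows could not be checked. Over the 300 bases from 250 before to 50 after the site inside the window, the 56 members had a median of 23 CpG and 65.3% GC. Beside this, 20698 promoters of protein-coding genes had 13 CpG and 56.7% GC. They ranged from 2 CpG at Robo4, a Robo of blood vessels, to 56 at Epha8. The sequence GGGCGG, searched on both strands, was in 43 of the 56 (76.8%, beside 46.7% of protein-coding promoters), and TATAAA, also on both strands, in 2 (3.57%, beside 2577 of the 20698 protein-coding promoters). The 22 of these members with H3K27me3 at least 2-fold above IgG had a median of 23 CpG (10 to 56), and the other 34 had 18.5 (2 to 42), with ranges that overlapped.

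Before any comparison, the library labelled EedcKO H3K27ac went against its label, and that labelled EedcKO H3K27me3 did not resemble wild type H3K27me3. Pearson correlations over the 71 members were taken on log2 RPKM with 0.5 RPKM added. They were 0.970 between the library labelled EedcKO H3K27ac and the wild type H3K27me3 library, and -0.003 between the former and wild type H3K27ac. For the library labelled EedcKO H3K27me3 the correlation was 0.198 to wild type H3K27me3, 0.640 to its H3K27ac and 0.759 to its RNA-Pol2 library. These correlations run across genes, which are not independent replicates. The library labelled EedcKO H3K27me3 also had 0.555 to EedcKO IgG. The marker genes of hindbrain and spinal cord had a median of 1213 counts in wild type H3K27me3 and 19 in wild type H3K27ac, with 20.5 in the library labelled EedcKO H3K27me3 and 1626.5 in that labelled EedcKO H3K27ac. Forebrain markers had medians of 468.5, 59, 50.5 and 683.5 in the same 4 libraries, so both lists were high in wild type H3K27me3 and in the library labelled EedcKO H3K27ac, and the lists do not tell used from unused genes. Whether the labels were exchanged, and whether the low signal of the library labelled EedcKO H3K27me3 is a loss of the mark, was not tested. Each value is therefore given by label, and each comparison is given in both pairings.

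**Figure D1:**
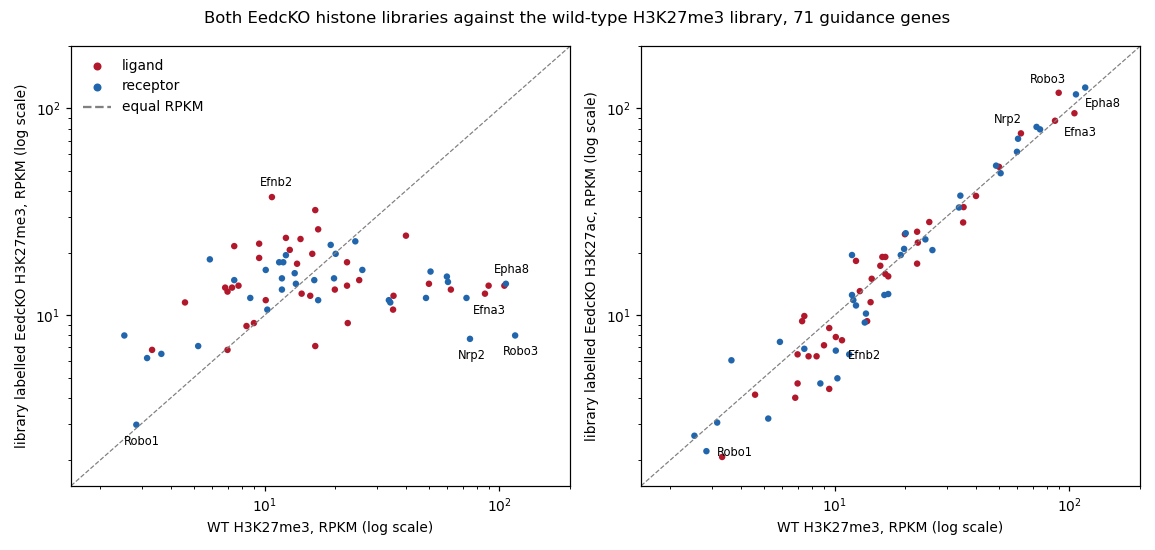
Signal of both EedcKO histone libraries (vertical, RPKM, log scale) against wild type H3K27me3 (horizontal, RPKM, log scale) at the 71 guidance promoters, 1 point per gene, with ligands in red, receptors in blue and a dashed line of equal values. The library labelled EedcKO H3K27ac (right) follows the line with a Pearson correlation of 0.970 of log2 RPKM. The library labelled EedcKO H3K27me3 (left) stays low at Robo3, Nrp2, Efna3 and Epha8.

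Total promoter counts per library ranged from 948955 to 3842779, and a member held from 5 to 916 counts. RPKM here is the count per kb, scaled to the library's total promoter counts. Ratios to the matched control (input for Eed, IgG for the other targets) were scaled by these totals. Ratios of EedcKO to wild type were taken relative to the median promoter, whose own log2 ratio by totals was -0.41 for RNA-Pol2, -1.04 for H3K27ac, 0.85 for H3K27me3 and 0.88 for Eed. A pseudocount of 0.5 RPKM was added, so log2 ratios understate differences at low promoters, and a ratio past 2-fold was counted. All 71 members passed the filter of a mean of 1 RPKM over both libraries in every comparison. Intervals given for single genes are 95% bounds on the ratio of their counts (Clopper-Pearson, exact), which cover counting error only. In IgG 9 members were at least 2-fold higher in EedcKO and 3 lower (all promoters 7.33% and 6.77%), and in input 0 were higher and 1 lower (3.34% and 2.50%). Markers of the forebrain had a wild type RNA-Pol2 median of 61 counts and those of neurons 58.5. The medians were 39.5 for endothelial, 41.5 for microglia and macrophage, 40 for erythroid and 39.5 for mesenchyme genes, close to the 38 of the median window. The Eed window itself held 121 and 40 Eed counts in wild type and EedcKO, which does not test the genotype since the deleted part is not given.

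In the wild type forebrain, some guidance promoters carried H3K27me3, some H3K27ac and some both. H3K27me3 was at least 2-fold above IgG at 28 of the 71 members, beside 7.62% of all promoters and 13.3% of protein-coding ones. H3K27ac was at least 2-fold above IgG at 27 members, beside 15.9% of all and 30.5% of protein-coding promoters. RNA-Pol2 was above at 20 members (11.3% of all, 20.7% of protein-coding) and Eed stood above input at 41 (14.5% of all, 28.6% of protein-coding). The median log2 ratio of the members was 0.58 for H3K27me3 (interval across members 0.15 to 1.04) and 0.70 for H3K27ac (0.46 to 1.01). It was 1.18 for Eed (0.84 to 1.58) and 0.50 for RNA-Pol2 (0.20 to 0.67). The median of all promoters was -1.03, -0.40, -1.32 and -0.22 in the same order, so the members' share past 2-fold also moves with this centre. With both libraries set to the same median of all promoters, 51 members were above IgG for H3K27me3, 24 for RNA-Pol2 and 37 for H3K27ac, and 57 above input for Eed. The shares of promoters given above belong to the ratios by totals, not to these counts.

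Both marks past 2-fold were found at 12 members, which are 42.9% of the 28 with H3K27me3 and 44.4% of the 27 with H3K27ac. Of 2680 protein-coding promoters with H3K27me3 past 2-fold, 758 also had H3K27ac there. These 12 were Efna5, Epha4, Epha6, Epha10, Ephb1, Ephb3, Nrp1, Nrp2, Ntng2, Plxnc1, Robo3 and Sema7a. Both ratios have the same wild type IgG library as their denominator, so a low IgG count raises both together. The IgG counts of the 12 ran from 14 at Epha4 to 36 at Ntng2, with Ntng2 alone above the members' median of 31. The part of IgG in these shared calls was not tested. Among the 12, only Ephb3 and Plxnc1 had summits of both marks in the window. Another 28 members had neither mark past 2-fold. Of the 43 members without H3K27me3 past 2-fold, 15 had H3K27ac there, as did 5376 of 17461 such protein-coding promoters. The tissue holds many cell types, so both marks on 1 promoter and marks on different cells, and fewer marked cells and less signal per cell, cannot be told apart. At the 28 members with H3K27me3 the median log2 ratio to IgG was 0.79 for H3K27ac and 0.48 for RNA-Pol2. At the other 43 it was 0.67 and 0.50, and the intervals of both groups overlapped.

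**Figure D2:**
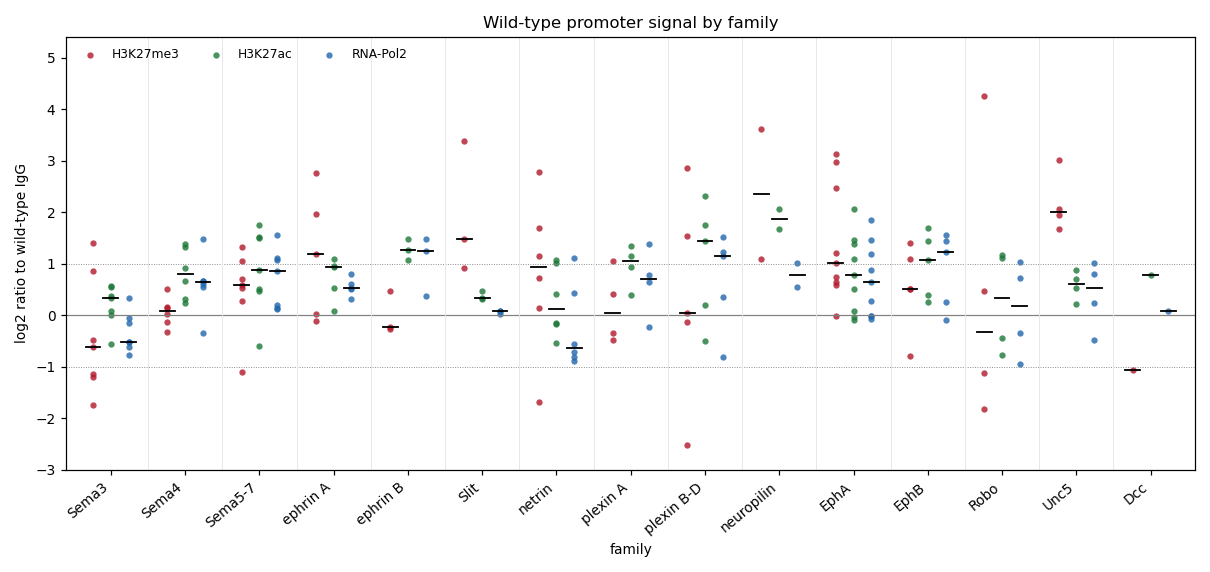
Log2 ratio of H3K27me3, H3K27ac and RNA-Pol2 to IgG in the wild type forebrain, 1 point per gene in each of 15 families, with a black bar at the family's median and dotted lines at 2-fold. All 4 Unc5 receptors stand above the upper line in H3K27me3, and no ephrin B or class 4 semaphorin does. Robo3 reaches 4.25, and the windows of the other Robo genes lie at 0.47 or lower. The Robo1 window misses its RefSeq start site.

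The peak summits deposited by the authors gave the same 4 wild type targets another readout. A summit lay in the window of 60 members for Eed (29.1% of all windows), 10 for RNA-Pol2 (4.92%), 14 for H3K27ac (10.3%) and 24 for H3K27me3 (6.40%). Of protein-coding promoters, 54.8% had an Eed, 10.3% an RNA-Pol2, 21.7% an H3K27ac and 12.7% an H3K27me3 summit, so the members' 19.7% for H3K27ac was not above the protein-coding share. An H3K27me3 summit with no H3K27ac summit marked 19 members (26.8%, beside 10.1% of protein-coding promoters), and all 19 also had an Eed summit, as did 1862 of those 2140 protein-coding promoters. An H3K27ac summit with no H3K27me3 summit marked 9 members (Efna4, Efnb2, Ephb2, Ntn3, Ntng2, Plxnb1, Plxnb2, Sema4b and Sema5b), which are 12.7% of members beside 19.1% of protein-coding promoters. All 9 had an Eed summit, as did 3683 of those 4065 protein-coding promoters. Both summits were at Ephb3, Ephb4, Plxnc1, Robo2 and Sema4c (7.04%, beside 2.59% of protein-coding promoters). Summits and counts did not pick the same members: 15 of the 28 members with H3K27me3 past 2-fold had a summit in the window, and Robo3, Nrp2 and Efna3, with 738, 474 and 549 counts, had none.

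In the following accounts of the families, the members with the highest and the lowest H3K27me3 of each family and a textbook set of forebrain guidance genes are given with their counts in every library. Pairs of counts are always wild type first and EedcKO second, with the histone libraries by label. The heat map of ratios to the matched control shows all 71 members.

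**Figure D3:**
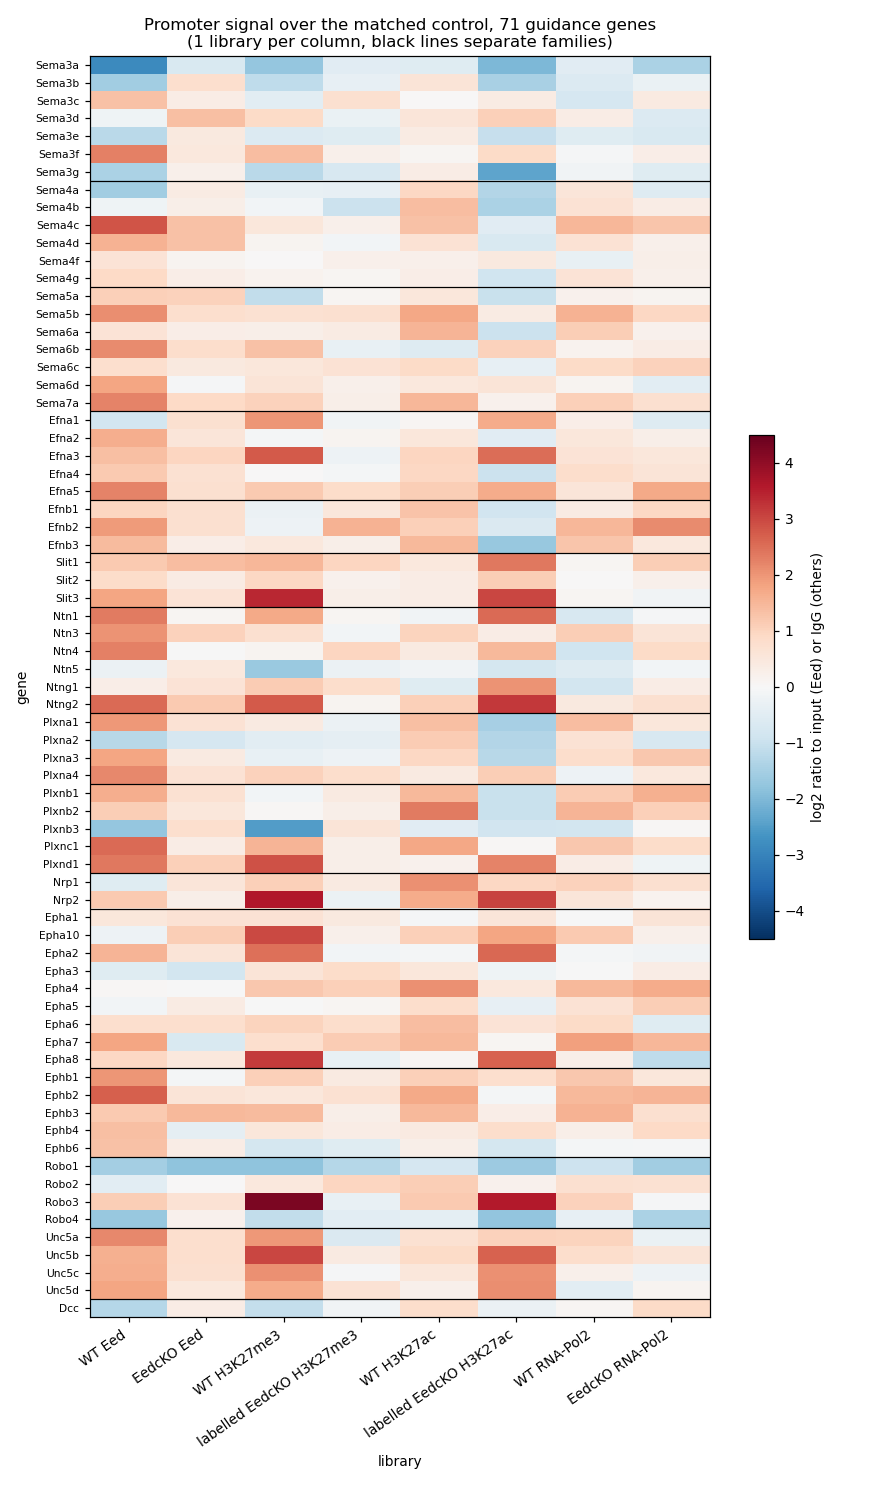
Log2 ratio of each antibody library to its control (input for Eed, IgG for the others) at the 71 guidance promoters, 1 row per gene, 1 column per library, with black lines between families and red above, blue below the control. The column of the library labelled EedcKO H3K27ac repeats the pattern of wild type H3K27me3, with Robo3 at 3.56 and 4.25 and Nrp2 at 3.03 and 3.61.

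Class 3 semaphorins are secreted, and most of them bind neuropilins and act mainly as repellents. Of these 7 genes, Sema3f alone had H3K27me3 at least 2-fold above IgG, and none had H3K27ac or RNA-Pol2 there. Sema3f held 253 and 82 counts of H3K27me3, 61 and 274 of H3K27ac, 71 and 199 of RNA-Pol2, 196 and 51 of Eed, 42 and 65 of IgG and 20 and 24 of input. Its wild type log2 ratio to IgG was 1.40 (0.95 to 1.94), and its Eed ratio to input was 2.28. Sema3a held 21 and 23 counts of H3K27me3, 32 and 15 of H3K27ac, 42 and 26 of RNA-Pol2, 5 and 27 of Eed, 35 and 31 of IgG and 25 and 29 of input. Sema3a, the best-known collapsing cue of growth cones, had the lowest Eed count of all members, and its window missed the RefSeq start site. Sema3b held 49 and 47 counts of H3K27me3, 103 and 46 of H3K27ac, 56 and 112 of RNA-Pol2, 15 and 55 of Eed, 50 and 57 of IgG and 25 and 21 of input. Sema3g held 43 and 46 counts of H3K27me3, 80 and 29 of H3K27ac, 73 and 119 of RNA-Pol2, 11 and 36 of Eed, 46 and 71 of IgG and 17 and 20 of input. Sema3d held 104 and 24 counts of H3K27me3, 51 and 139 of H3K27ac, 56 and 43 of RNA-Pol2, 50 and 57 of Eed, 25 and 28 of IgG and 30 and 14 of input. Sema3b and Sema3g had wild type Eed at least 2-fold below input, as did 59.4% of all promoters. Sema3d went from 104 to 24 H3K27me3 counts by label (relative log2 ratio -2.01, interval -2.77 to -1.41).

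Class 4 semaphorins are membrane ligands, several of them for B plexins. None of the 6 had H3K27me3 at least 2-fold above IgG, with log2 ratios from -0.33 at Sema4a to 0.52 at Sema4c. Sema4c held 107 and 88 counts of H3K27me3, 116 and 112 of H3K27ac, 166 and 413 of RNA-Pol2, 286 and 71 of Eed, 33 and 70 of IgG and 20 and 18 of input. Sema4c had the highest ratio of Eed to input among the members (2.82, interval 2.23 to 3.62) and an RNA-Pol2 ratio to IgG of 1.48, and its window shares 1352 bp with another annotated gene on the opposite strand. Sema4a held 44 and 44 counts of H3K27me3, 67 and 47 of H3K27ac, 65 and 85 of RNA-Pol2, 13 and 46 of Eed, 25 and 53 of IgG and 22 and 23 of input. Sema4a, at the other end of the class, had fewer Eed than input counts in wild type. The median window held 11 and 19 counts in these wild type libraries.

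Classes 5 to 7 hold membrane-spanning semaphorins and the lipid-anchored Sema7a. Of 7 genes, Sema6b and Sema7a had H3K27me3 past 2-fold, and Sema5b, Sema6a and Sema7a had H3K27ac there. Sema6b held 223 and 36 counts of H3K27me3, 35 and 204 of H3K27ac, 76 and 131 of RNA-Pol2, 199 and 62 of Eed, 39 and 42 of IgG and 23 and 23 of input. Sema5a held 47 and 73 counts of H3K27me3, 93 and 72 of H3K27ac, 95 and 169 of RNA-Pol2, 115 and 55 of Eed, 47 and 63 of IgG and 28 and 17 of input. Sema6b had the class's highest and Sema5a its lowest H3K27me3, with log2 ratios of 1.32 and -1.11. Sema6a held 60 and 75 counts of H3K27me3, 91 and 63 of H3K27ac, 86 and 153 of RNA-Pol2, 94 and 45 of Eed, 22 and 54 of IgG and 31 and 24 of input. Sema6c held 104 and 109 counts of H3K27me3, 82 and 115 of H3K27ac, 104 and 330 of RNA-Pol2, 86 and 52 of Eed, 32 and 64 of IgG and 26 and 25 of input. Sema6a signals through A plexins. Sema6c had 109 counts in the library labelled EedcKO H3K27me3 against 104 in wild type.

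Ephrin A ligands are held in the membrane by a lipid anchor and set up topographic maps of axons. Efna1, Efna3 and Efna5 had H3K27me3 past 2-fold, and Efna2 and Efna4 did not. Efna3 held 549 and 43 counts of H3K27me3, 95 and 633 of H3K27ac, 95 and 164 of RNA-Pol2, 128 and 49 of Eed, 35 and 47 of IgG and 25 and 16 of input. Efna2 held 81 and 70 counts of H3K27me3, 78 and 95 of H3K27ac, 98 and 174 of RNA-Pol2, 131 and 43 of Eed, 39 and 59 of IgG and 21 and 19 of input. Efna5 held 126 and 45 counts of H3K27me3, 73 and 179 of H3K27ac, 62 and 194 of RNA-Pol2, 237 and 58 of Eed, 24 and 23 of IgG and 25 and 23 of input. Efna3 had the highest ratio of the family (2.76, interval 2.32 to 3.35) and Efna2 the lowest (-0.10). Efna5 was the only ephrin A with H3K27ac past 2-fold, at 1.10. Ephrin B ligands span the membrane and signal back into their own cell. All 3 had H3K27ac at least 2-fold above IgG, 2 of them (Efnb2 and Efnb3) also had RNA-Pol2 there, and none had H3K27me3. Efnb2 held 68 and 126 counts of H3K27me3, 107 and 55 of H3K27ac, 181 and 425 of RNA-Pol2, 225 and 59 of Eed, 36 and 38 of IgG and 30 and 23 of input. Efnb1 held 29 and 39 counts of H3K27me3, 56 and 30 of H3K27ac, 37 and 120 of RNA-Pol2, 101 and 31 of Eed, 16 and 25 of IgG and 26 and 12 of input. Efnb3 held 60 and 64 counts of H3K27me3, 76 and 32 of H3K27ac, 83 and 170 of RNA-Pol2, 137 and 64 of Eed, 19 and 49 of IgG and 26 and 34 of input. Efnb2 had the highest RNA-Pol2 count of the members in both genotypes, in a window that shares 1441 bp with another annotated gene.

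Slits are secreted repellents at the midline and Robos are their receptors. Slit1 and Slit3 had H3K27me3 past 2-fold and Slit2 lay just under it (0.92, interval 0.43 to 1.51), while none of the 3 had H3K27ac or RNA-Pol2 past 2-fold. Slit3 held 664 and 47 counts of H3K27me3, 47 and 688 of H3K27ac, 50 and 79 of RNA-Pol2, 199 and 55 of Eed, 27 and 36 of IgG and 29 and 23 of input. Slit1 held 224 and 42 counts of H3K27me3, 67 and 242 of H3K27ac, 65 and 104 of RNA-Pol2, 117 and 62 of Eed, 35 and 19 of IgG and 26 and 15 of input. Slit2 held 160 and 50 counts of H3K27me3, 65 and 205 of H3K27ac, 66 and 116 of RNA-Pol2, 102 and 44 of Eed, 37 and 40 of IgG and 29 and 22 of input. The 3 genes kept the same order in the library labelled EedcKO H3K27ac. Robo3, which changes the response of commissural axons to Slit, had the highest H3K27me3 count and ratio of all 71 members (4.25, interval 3.66 to 5.18; window chr9:37432246-37434245). Robo3 held 738 and 27 counts of H3K27me3, 52 and 916 of H3K27ac, 60 and 75 of RNA-Pol2, 61 and 39 of Eed, 16 and 32 of IgG and 14 and 16 of input. Robo1 held 18 and 10 counts of H3K27me3, 25 and 16 of H3K27ac, 28 and 18 of RNA-Pol2, 12 and 9 of Eed, 32 and 25 of IgG and 20 and 23 of input. Robo2 held 85 and 54 counts of H3K27me3, 83 and 67 of H3K27ac, 80 and 102 of RNA-Pol2, 36 and 39 of Eed, 27 and 25 of IgG and 26 and 25 of input. The other 3 Robo windows did not share this level. Robo4 held 55 and 41 counts of H3K27me3, 55 and 34 of H3K27ac, 75 and 47 of RNA-Pol2, 13 and 37 of Eed, 55 and 54 of IgG and 24 and 21 of input. Robo1 was below the members' median in all 8 antibody libraries, and its RefSeq start site lay outside the window.

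Netrin-1 attracts axons through Dcc and repels them through Unc5 receptors, and netrin-Gs are lipid-anchored relatives that bind other partners. Ntn1, Ntng1 and Ntng2 had H3K27me3 past 2-fold. Ntng2 held 569 and 47 counts of H3K27me3, 106 and 864 of H3K27ac, 86 and 164 of RNA-Pol2, 271 and 77 of Eed, 36 and 40 of IgG and 23 and 22 of input. Ntn1 held 393 and 45 counts of H3K27me3, 65 and 550 of H3K27ac, 56 and 93 of RNA-Pol2, 194 and 36 of Eed, 53 and 39 of IgG and 19 and 22 of input. Ntn5 held 46 and 46 counts of H3K27me3, 85 and 68 of H3K27ac, 81 and 116 of RNA-Pol2, 29 and 49 of Eed, 69 and 52 of IgG and 18 and 23 of input. Ntng2 also had H3K27ac past 2-fold (1.07, interval 0.54 to 1.68), and its window lies within that of another annotated gene by 1999 bp on the same strand. All 4 Unc5 genes had H3K27me3 past 2-fold, from 1.67 at Unc5d to 3.01 at Unc5b, with a family median of 2.00. Unc5b held 382 and 49 counts of H3K27me3, 52 and 518 of H3K27ac, 63 and 126 of RNA-Pol2, 178 and 55 of Eed, 20 and 34 of IgG and 30 and 21 of input. Unc5d held 214 and 40 counts of H3K27me3, 47 and 241 of H3K27ac, 36 and 62 of RNA-Pol2, 151 and 47 of Eed, 29 and 23 of IgG and 22 and 22 of input. Unc5b and Unc5d mark both ends of the family. Unc5c held 308 and 41 counts of H3K27me3, 64 and 384 of H3K27ac, 67 and 81 of RNA-Pol2, 186 and 46 of Eed, 32 and 39 of IgG and 30 and 18 of input. Unc5a held 217 and 39 counts of H3K27me3, 55 and 275 of H3K27ac, 88 and 113 of RNA-Pol2, 286 and 53 of Eed, 24 and 57 of IgG and 32 and 20 of input. None of the 4 had H3K27ac past 2-fold, and all had Eed past 2-fold over input. Dcc, their partner receptor, had neither. Dcc held 23 and 22 counts of H3K27me3, 56 and 44 of H3K27ac, 43 and 107 of RNA-Pol2, 17 and 48 of Eed, 23 and 23 of IgG and 23 and 25 of input. Its H3K27me3 ratio was -1.06 (-2.06 to -0.26) and its wild type Eed ratio to input -1.29. The median of all promoters was -1.03 and -1.32 in these measures. The H3K27ac ratio of Dcc stood at 0.79.

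Neuropilins bind class 3 semaphorins and form receptors with A plexins, which carry the signal into the cell. Both neuropilins had H3K27me3 and H3K27ac past 2-fold. Nrp2 held 474 and 26 counts of H3K27me3, 75 and 575 of H3K27ac, 42 and 79 of RNA-Pol2, 139 and 39 of Eed, 16 and 29 of IgG and 31 and 21 of input. Nrp1 held 75 and 45 counts of H3K27me3, 93 and 142 of H3K27ac, 56 and 129 of RNA-Pol2, 31 and 69 of Eed, 15 and 31 of IgG and 24 and 31 of input. Nrp2 stood at 3.61 in H3K27me3 (3.01 to 4.54) and Nrp1 at 1.09 (0.35 to 2.07), and in Eed Nrp2 had 139 and Nrp1 31 wild type counts. Of the A plexins, Plxna4 alone had H3K27me3 past 2-fold, just inside at 1.04. Plxna4 held 165 and 56 counts of H3K27me3, 64 and 150 of H3K27ac, 52 and 100 of RNA-Pol2, 223 and 46 of Eed, 35 and 29 of IgG and 25 and 19 of input. Plxna2 held 20 and 21 counts of H3K27me3, 42 and 22 of H3K27ac, 37 and 37 of RNA-Pol2, 15 and 21 of Eed, 13 and 26 of IgG and 20 and 24 of input. Plxna2 was below the members' median in all 8 antibody libraries, in a window that misses its RefSeq start site. Plxna1 held 64 and 56 counts of H3K27me3, 76 and 49 of H3K27ac, 100 and 220 of RNA-Pol2, 206 and 53 of Eed, 21 and 62 of IgG and 27 and 22 of input. Plxna3 held 33 and 24 counts of H3K27me3, 52 and 23 of H3K27ac, 59 and 153 of RNA-Pol2, 90 and 31 of Eed, 19 and 26 of IgG and 13 and 15 of input. Plxna1 and Plxna2 had H3K27ac past 2-fold, at 1.34 and 1.15. Plxna2 reached this with 42 H3K27ac and 13 IgG counts, beside members' medians of 67 and 31.

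Plexins B, C and D spanned the whole range. Plxnd1, a plexin of vessels and neurons, had H3K27me3 of 2.86 (2.32 to 3.63), and Plxnb3 had the lowest ratio of all members, -2.53 (-3.66 to -1.91). Plxnd1 held 378 and 52 counts of H3K27me3, 35 and 448 of H3K27ac, 50 and 85 of RNA-Pol2, 230 and 60 of Eed, 22 and 40 of IgG and 22 and 18 of input. Plxnb3 held 16 and 27 counts of H3K27me3, 46 and 19 of H3K27ac, 47 and 41 of RNA-Pol2, 8 and 29 of Eed, 48 and 16 of IgG and 16 and 11 of input. Plxnc1 held 103 and 50 counts of H3K27me3, 74 and 91 of H3K27ac, 65 and 167 of RNA-Pol2, 337 and 56 of Eed, 15 and 38 of IgG and 29 and 29 of input. Plxnc1, the receptor of Sema7a, had the highest wild type Eed count of the members, and both marks past 2-fold. Plxnb2 held 37 and 63 counts of H3K27me3, 118 and 54 of H3K27ac, 85 and 254 of RNA-Pol2, 16 and 48 of IgG and 29 and 23 of input, and its Eed level was 31.2 and 17.3 RPKM. Plxnb1 held 73 and 61 counts of H3K27me3, 138 and 47 of H3K27ac, 144 and 322 of RNA-Pol2, 211 and 62 of Eed, 36 and 42 of IgG and 34 and 25 of input. Plxnb2 had the highest H3K27ac ratio of all members, 2.32 (1.66 to 3.27), and Plxnb1 the highest H3K27ac count, 138.

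Eph receptors are the tyrosine kinases that bind ephrins. Of 9 EphA genes, Epha2, Epha4, Epha6, Epha8 and Epha10 had H3K27me3 past 2-fold, and Epha6 lay just inside at 1.02. Epha8 held 674 and 48 counts of H3K27me3, 48 and 849 of H3K27ac, 71 and 62 of RNA-Pol2, 84 and 41 of Eed, 33 and 57 of IgG and 22 and 19 of input. Epha2 held 458 and 41 counts of H3K27me3, 46 and 591 of H3K27ac, 60 and 89 of RNA-Pol2, 153 and 56 of Eed, 36 and 41 of IgG and 27 and 24 of input. Epha5 held 86 and 48 counts of H3K27me3, 94 and 74 of H3K27ac, 109 and 224 of RNA-Pol2, 55 and 42 of Eed, 39 and 42 of IgG and 31 and 21 of input. Epha8 stood at 3.14 (2.69 to 3.74; window chr4:136955816-136957815) and Epha5 at -0.02. Epha4 held 76 and 61 counts of H3K27me3, 87 and 86 of H3K27ac, 72 and 213 of RNA-Pol2, 52 and 45 of Eed, 14 and 26 of IgG and 26 and 30 of input. Epha7 held 47 and 50 counts of H3K27me3, 49 and 50 of H3K27ac, 82 and 144 of RNA-Pol2, 151 and 27 of Eed, 12 and 20 of IgG and 22 and 29 of input. Epha6 held 121 and 74 counts of H3K27me3, 96 and 142 of H3K27ac, 86 and 65 of RNA-Pol2, 86 and 57 of Eed, 26 and 39 of IgG and 26 and 22 of input. Epha4, which binds ephrins of both classes, had the second highest H3K27ac ratio with Nrp1, both at 2.07, and Epha7 the highest RNA-Pol2 ratio, 1.84. These ranks rest on low wild type IgG counts, 14 at Epha4, 15 at Nrp1 and 12 at Epha7, beside a members' median of 31. The 82 RNA-Pol2 counts of Epha7 were near the members' median of 72. Of 5 EphB genes, Ephb1 and Ephb3 had H3K27me3 past 2-fold, Ephb1, Ephb2 and Ephb3 had H3K27ac and RNA-Pol2 there, and all 5 had Eed there. Ephb3 held 154 and 77 counts of H3K27me3, 97 and 169 of H3K27ac, 134 and 241 of RNA-Pol2, 138 and 61 of Eed, 25 and 59 of IgG and 31 and 14 of input. Ephb6 held 75 and 51 counts of H3K27me3, 97 and 91 of H3K27ac, 97 and 165 of RNA-Pol2, 133 and 50 of Eed, 59 and 69 of IgG and 27 and 26 of input. Ephb1 held 127 and 67 counts of H3K27me3, 77 and 181 of H3K27ac, 110 and 162 of RNA-Pol2, 153 and 44 of Eed, 26 and 46 of IgG and 19 and 31 of input. Ephb3 was highest and Ephb6, a receptor whose kinase is inactive, lowest in H3K27me3, at 1.41 and -0.79. Ephb2 held 78 and 66 counts of H3K27me3, 111 and 81 of H3K27ac, 119 and 270 of RNA-Pol2, 309 and 57 of Eed, 24 and 37 of IgG and 24 and 25 of input. Ephb2 had 309 Eed counts in wild type, the second highest after Plxnc1.

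Neighbouring members differed widely. Efna1, Efna3 and Efna4 lie on chromosome 3 with 41.8 and 15.1 kb between the starts of neighbouring windows and held 317, 549 and 87 wild type H3K27me3 counts. Robo4 and Robo3 lie 31.3 kb apart by the same measure on chromosome 9 and held 55 and 738. Ephb2 and Epha8 lie 121 kb apart on chromosome 4 and held 78 and 674, and Sema3b and Sema3f, 101 kb apart on chromosome 9, held 49 and 253. The library labelled EedcKO H3K27ac repeated each contrast, with 379, 633 and 68 counts at the 3 ephrin A genes, 34 and 916 at Robo4 and Robo3, 81 and 849 at Ephb2 and Epha8, and 46 and 274 at Sema3b and Sema3f. In the library labelled EedcKO H3K27me3 the contrasts were small or turned, with 48, 43 and 60, then 41 and 27, then 66 and 48, and at last 47 and 82 counts.

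**Figure D4:**
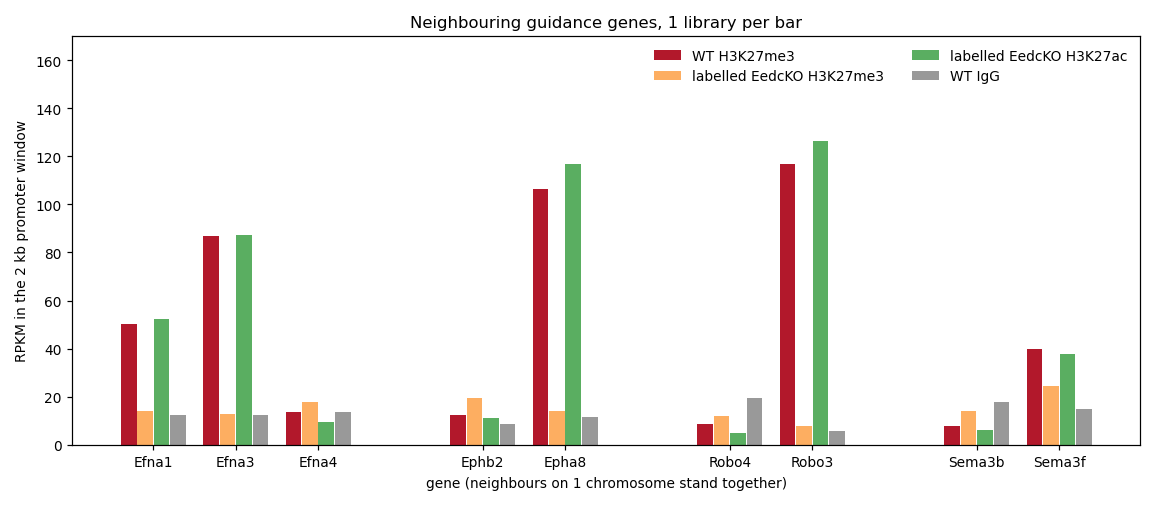
RPKM in the 2 kb promoter window (linear axis from 0) of 9 guidance genes that are neighbours on 1 chromosome, in wild type H3K27me3, both EedcKO histone libraries by label and wild type IgG, 1 library per bar. Efna3, Epha8, Robo3 and Sema3f are high beside their neighbours in wild type H3K27me3 and in the library labelled EedcKO H3K27ac, and not in IgG.

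By label, H3K27me3 was lower in EedcKO at guidance promoters. Relative to the median promoter, 29 of 71 members were at least 2-fold lower and 0 higher, beside 13.0% and 6.80% of all promoters, and the members' median was -0.80 (interval -1.17 to -0.49). Scaled by totals alone, 19 were lower and 6 higher, and the median was 0.05. With IgG subtracted, 29 were lower and 14 higher, and the median was -0.46. Here and below, shares of all promoters in EedcKO to wild type comparisons refer to ratios relative to the median promoter. The 5 largest decreases were at Robo3 (738 to 27 counts, -4.64, interval -5.33 to -4.17), Nrp2 (474 to 26, -4.05), Slit3 (664 to 47, -3.72), Epha8 (674 to 48, -3.71) and Efna3 (549 to 43, -3.57). The 5 largest increases were at Efnb2 (68 to 126, 0.90, interval 0.51 to 1.39), Plxnb2 (37 to 63, 0.74), Plxnb3 (16 to 27, 0.64), Sema5a (47 to 73, 0.63) and Efnb1 (29 to 39, 0.39). Of the 28 members with wild type H3K27me3 past 2-fold 21 were lower, with a median of -2.42, and of the other 43 members 8, with a median of -0.23. That split rests on the same wild type library as the ratio and is a description only.

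In the same library, labelled EedcKO H3K27me3, little was left above IgG at the members. It was at least 2-fold above EedcKO IgG at 3 members, Efnb2, Epha4 and Epha7 (5.85% of all promoters). The windows of all 3 overlap that of another annotated gene, by 1441, 1808 and 55 bp in this order. A summit lay in 1 member window, at Efnb2 (1.18% of all windows), where the wild type libraries had summits of RNA-Pol2 and of H3K27ac and no H3K27me3 summit. Set against wild type H3K27ac, this library was at least 2-fold lower at 9 members and higher at 0 (6.17% and 13.1% of all promoters), with a median of -0.42 (-0.58 to -0.28). With IgG subtracted, 39 were lower and 7 higher. The 9 were Sema4b, Nrp2, Dcc, Sema3e, Robo1, Plxnb1, Ntng2, Efna3 and Sema3b, from -1.54 to -1.02.

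By label, H3K27ac was higher in EedcKO at many of the same genes. Relative to the median promoter, 26 members were at least 2-fold higher and 2 lower, beside 18.2% and 11.7% of all promoters, with a median of 0.59 (0.11 to 0.94). Scaled by totals alone, 18 were higher and 25 lower, and the median was -0.45. With IgG subtracted, 25 were higher and 35 lower, and the median was -0.91. The 5 largest increases were at Epha8 (48 to 849 counts, 4.23, interval 3.86 to 4.73), Robo3 (52 to 916, 4.23), Slit3 (47 to 688, 3.96), Epha2 (46 to 591, 3.77) and Plxnd1 (35 to 448, 3.75). The 5 largest decreases were at Plxnb1 (138 to 47, -1.33, interval -1.93 to -0.93), Sema3g (80 to 29, -1.19), Efnb3 (76 to 32, -0.99), Plxnb3 (46 to 19, -0.95) and Sema3b (103 to 46, -0.94). Of the 29 members lower in H3K27me3 by label, 25 (86.2%) were among the 26 higher in H3K27ac by label (96.2%). The share of such an overlap over all promoters is not given here. Among protein-coding promoters with wild type H3K27me3 past 2-fold, 2244 of 2683 were lower in H3K27me3 by label. In H3K27ac by label 2228 of 2682 were higher. Of the 28 such members, 21 were lower and 22 higher.

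Set against wild type H3K27me3 instead, the library labelled EedcKO H3K27ac left no member past 2-fold. Of the 71 members 0 were lower and 0 higher, beside 4.49% and 2.55% of all promoters. The median was 0.24 (0.16 to 0.34), and the members ranged from -0.74 at Efnb3 to 0.99 at Nrp1. By totals alone the median was -0.05, and with IgG subtracted 14 were lower and 3 higher. Robo3 stood at 0.40 (0.26 to 0.54), Nrp2 at 0.37 (0.19 to 0.55), Slit3 at 0.14 (-0.01 to 0.30), Epha8 at 0.42 (0.28 to 0.57) and Efna3 at 0.30 (0.13 to 0.46). Above EedcKO IgG, this library was past 2-fold at 23 members (6.22% of all promoters), and at 43 with equal medians, and a summit lay in 23 windows (5.92%). By label the members' H3K27me3 median was thus -0.80 relative to the median promoter and 0.05 by totals, and in the other pairing 0.24 and -0.05.

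Eed itself was lower at most guidance promoters in the EedcKO library. Relative to the median promoter, 49 of 71 members were at least 2-fold lower and 5 higher, beside 30.0% and 22.6% of all promoters and 48.2% and 16.3% of protein-coding ones. The median was -1.66 (-2.09 to -1.45), and -0.78 by totals alone, where 29 members were lower and 11 higher. Relative to the protein-coding median of -0.91 the counts were again 29 and 11, and with input subtracted they were 42 and 14. The 5 largest decreases were at Plxnc1 (337 to 56 counts, 7.98-fold lower, log2 interval -3.46 to -2.61), Epha7 (151 to 27, -2.86), Ephb2 (309 to 57, -2.85), Unc5a (286 to 53, -2.84) and Ntn1 (194 to 36, -2.82). The 5 increases past 2-fold started from 5 to 15 wild type counts: Sema3a (5 to 27, 1.59, interval 0.60 to 3.73), Sema3b (15 to 55, 1.30), Sema4a (13 to 46, 1.23), Plxnb3 (8 to 29, 1.18) and Sema3g (11 to 36, 1.09).

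Eed counts of the members spanned a narrower range in EedcKO. Wild type counts ran from 5 to 337, and EedcKO counts from 9 to 77 with a median of 50, while input ran from 13 to 35 in wild type and 11 to 45 in EedcKO. Eed stood at least 2-fold above input at 10 members in EedcKO (4.71% of all promoters) against 41 in wild type, and a summit remained in the window of 14 of the 60 members with one in wild type. In all 17 members had an EedcKO Eed summit (9.40% of all windows), and none of these summits had a score of 10 or more. Eed was lower at 23 of the 28 members with H3K27me3 past 2-fold and at 26 of the other 43. The medians were -2.10 (-2.35 to -1.45) and -1.52 (-1.83 to -0.76). At protein-coding promoters the same split gave 1860 of 2683 and 7820 of 17325 lower, with medians of -1.62 and -0.76. All members of Sema5-7, ephrin B, Slit, EphB and Unc5 were at least 2-fold lower, and of the Robo family Robo3 was (-1.07), with Dcc at 0.95.

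**Figure D5:**
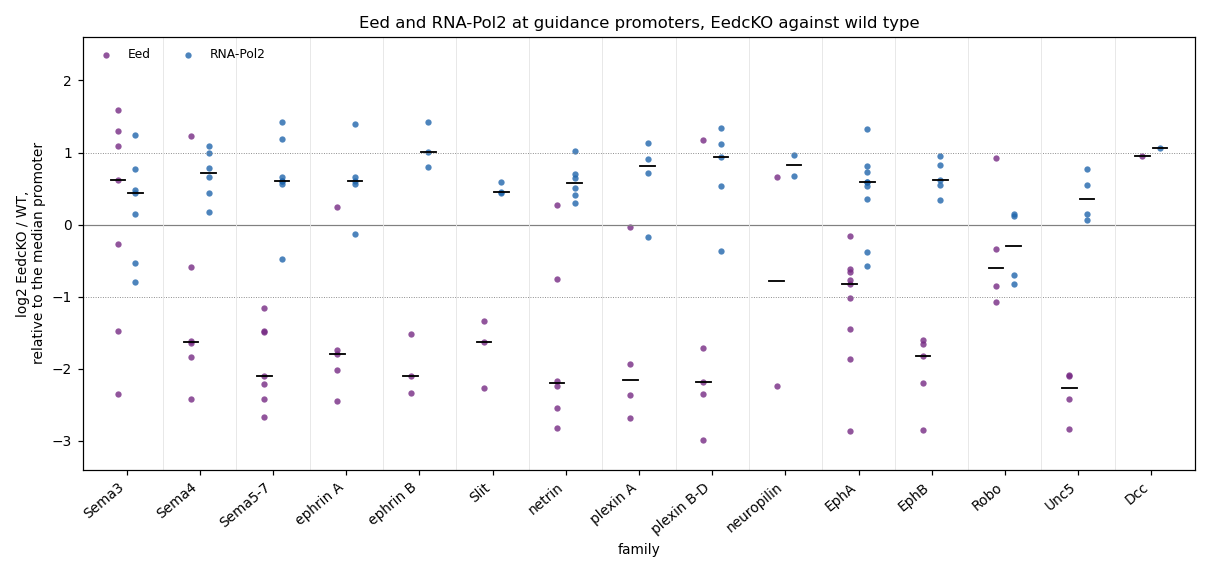
Log2 ratio of EedcKO to wild type relative to the median promoter for Eed and RNA-Pol2, 1 point per gene in 15 families, with a black bar at the family's median and dotted lines at 2-fold. Eed lies below the lower line in all members of Sema5-7, ephrin B, Slit, EphB and Unc5, and most RNA-Pol2 points lie between 0 and the upper line; by totals alone or against protein-coding promoters the RNA-Pol2 points shift down to a median of 0.19 or 0.12.

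RNA-Pol2 was somewhat higher in EedcKO at guidance promoters and at protein-coding promoters alike when set against the median promoter. Relative to the median promoter, 13 members were at least 2-fold higher in EedcKO and 0 lower (12.2% and 7.86% of all promoters, 22.7% and 4.19% of protein-coding ones), with a median of 0.60 (0.53 to 0.70) beside 0.48 for protein-coding promoters. By totals alone 2 were higher and 3 lower, with a median of 0.19, and relative to the protein-coding median 0 were higher and 5 lower, with a median of 0.12. With IgG subtracted, 18 were higher and 16 lower, and the median was 0.00. The 5 highest were Efnb1 (37 to 120 counts, 1.43, interval 0.94 to 2.05), Sema6c (104 to 330, 1.43), Efna5 (62 to 194, 1.40), Plxnb2 (85 to 254, 1.34) and Epha4 (72 to 213, 1.32). The 5 lowest were Robo4 (75 to 47, -0.83, interval -1.45 to -0.35), Sema3a (42 to 26, -0.80), Robo1 (28 to 18, -0.70), Epha6 (86 to 65, -0.58) and Sema3d (56 to 43, -0.54). IgG moved in the same direction at some of them, from 16 to 48 counts at Plxnb2 and from 32 to 64 at Sema6c, and its part in the ratio was not tested.

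The RNA-Pol2 ratio had overlapping intervals in members with and without wild type H3K27me3. The 28 members with H3K27me3 past 2-fold had a median RNA-Pol2 ratio of 0.56 (0.44 to 0.70) and the other 43 had 0.61 (0.48 to 0.80), and at protein-coding promoters the same split gave 0.50 and 0.48. The members with the most H3K27me3 stayed within 2-fold, with Robo3 at 0.12 (-0.41 to 0.62), Slit3 at 0.44 (-0.09 to 0.98), Epha8 at -0.38 (-0.93 to 0.10) and Nrp2 at 0.68 (0.13 to 1.27). Over IgG, RNA-Pol2 was past 2-fold at 12 members in EedcKO (11.8% of all promoters) and at 20 in wild type, and with equal medians at 33 and 24. RNA-Pol2 summits went the other way, from 10 member windows to 34 (47.9%), and the 34 include all 10 of wild type. The share of EedcKO RNA-Pol2 summits was 19.7% of all windows and 40.3% of protein-coding ones, where it was 10.3% in wild type. Over the whole genome the deposited RNA-Pol2 summits numbered 3716 in wild type and 25930 in EedcKO, and their part in the members' count was not tested.

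Some windows missed the start site that carried signal. RefSeq start sites of Sema3a, Sema4d, Ntng2, Plxna2 and Robo1 lay only outside the window. The windows of the 10 members without a RefSeq promoter entry, Dcc among them, could not be checked. Robo1 has its RefSeq start site 355 kb downstream of the window's centre, where the wild type libraries had summits of Eed (score 25.4), H3K27me3 (10.4) and H3K27ac (6.05) within 1 kb. Plxna2 has it 1.61 kb downstream, with summits of wild type Eed (44.4) and H3K27ac (3.18) and of EedcKO RNA-Pol2 (10.7). Sema3a has it 271 kb downstream, with a wild type Eed summit (10.3). Efna1 has a second start site 1.497 kb downstream with summits of wild type Eed (47.2), H3K27me3 (25.1) and H3K27ac (3.37). Low counts of Robo1, Sema3a and Plxna2 in the windows therefore describe these windows, not the genes. The scores are the authors' and serve only to describe peaks within a list.

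Summits were also counted over the whole span of each member's gene, and the share over all genes is not given here. At least 1 wild type H3K27me3 summit lay in 44 of the 71 genes, 129 in all, with 27 in Slit3 and 17 in Ephb1. The library labelled EedcKO H3K27ac had 133 summits in 41 genes, with 25 in Slit3 and 19 in Ephb1. The library labelled EedcKO H3K27me3 had 0 summits within the 71 gene spans, beside the 1 in the window of Efnb2, and wild type H3K27ac had 53 in 30 genes. Slit3 spans 587 kb and Ephb1 433 kb, against a median of 53.4 kb for the members.

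Other genes of the pathway and other signalling families help to place the members. Of 25 other guidance cues, receptors and adhesion genes, 10 had H3K27me3 past 2-fold above IgG (median 0.52). Of 43 intracellular effectors of guidance, 6 had it (median 0.17) and 28 had H3K27ac (median 1.30). Wnt, Bmp, Fgf and hedgehog ligands had H3K27me3 past 2-fold at 38 of 55 genes (median 2.54), and glutamate and GABA receptor subunits at 16 of 45 (median 0.14). With 28 of 71 and a median of 0.58, the guidance genes lay between these 2 groups in this measure. For H3K27ac the order was different, with 27 of 71 guidance genes, 6 of 55 ligands and 5 of 45 receptor subunits past 2-fold. RNA-Pol2 was at least 2-fold higher in EedcKO at 23 of 43 effectors and 6 of 25 other guidance genes, against 13 of 71 members, 3 of 55 ligands and 3 of 45 receptor subunits. H3K27me3 was past 2-fold at 13.3% of protein-coding promoters (7.62% of all), and the effectors' 14.0% was near the former share. H3K27ac was past 2-fold at 30.5% of protein-coding promoters (15.9% of all), with the ligands at 10.9% and the receptor subunits at 11.1%. RNA-Pol2 was at least 2-fold higher at 22.7% of protein-coding promoters (12.2% of all), and the members' share was not above the former. None of these differences between groups was tested.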

How the data were processed

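Chromatin of E12.5 forebrain was profiled in 12 libraries, 1 for each of 2 genotypes and 6 kinds of library, so no group has replicates. The authors deposited tables of promoter windows of 2 kb, which hold whole-number read counts per window and library, whatever their file name says of RPKM (the values are whole and their sums differ between libraries). They also deposited peak summits called per library with a −log10 score, and the file headers do not say whether it comes from p or q. Per the submitters' processing notes, Bowtie2 2.4.1, MACS2 2.2.7.1, deepTools 3.4.0, ChIPseeker 1.22.1 and the mm10 build were used. The planned analysis took the windows as RPKM, and the values here were computed from the counts. The symbols of 27 windows had become dates in one file and were taken from the other tables, and 2 windows were not 2 kb long.

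From the counts, RPKM was computed by scaling to the total promoter counts, which are not the libraries' depth. Log2 ratios used a pseudocount of 0.5 RPKM and a minimum mean of 1 RPKM over both libraries, and ratios past 2-fold were counted. EedcKO to wild type ratios were set relative to the median promoter. Reads carry no molecular identifiers here, so the 95% intervals cover counting error only, and intervals of a list's median use order statistics across its members. The steps were tested on simulated data. Python 3.11.15, pandas 2.3.3, NumPy 2.4.6, SciPy 1.17.1 and matplotlib 3.10.9 were used. Symbols were matched to RefSeq for start sites and sequences.

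The members and all lists were chosen with earlier results of these data known. All members may be named. Counts in every library are given for the highest and lowest H3K27me3 member of each family, the 5 largest decreases and increases of each EedcKO to wild type comparison with at least 20 counts in the higher library, and a textbook list of forebrain guidance genes. Other pseudocounts, filters, scalings, subtraction of the control, summit distances and scores were tried.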

Additional observations from a re-analysis of the deposited data

How the results depend on the processing

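No paired analysis was possible because each genotype had 1 library of each kind. Among the summary values of the comparisons, 224 alternatives stayed close to the reported value, 86 moved further and 4 changed sign, and for single genes 380 stayed close and 101 moved. Scaled by totals only, the median changed sign to 0.05 for H3K27me3 by label, -0.45 for H3K27ac by label and -0.05 for the library labelled EedcKO H3K27ac against wild type H3K27me3. The other medians by totals were -0.78 for Eed and 0.19 for RNA-Pol2. By totals 3 members were lower and 2 higher for RNA-Pol2, 19 lower and 6 higher for H3K27me3, and 29 lower and 11 higher for Eed. By totals 25 were lower for H3K27ac, 1 for the library labelled EedcKO H3K27ac against wild type H3K27me3, 5 for the library labelled EedcKO H3K27me3 against wild type H3K27ac and 0 for input. Relative to the protein-coding median, Eed had a median of -0.75 (29 lower, 11 higher), RNA-Pol2 0.12 (5 and 0) and the library labelled EedcKO H3K27me3 against wild type H3K27ac -0.21 (2 lower). IgG then had 5 lower and 3 higher, and input 0 and 1. With the control subtracted, H3K27ac by label had a median of -0.91 (35 lower), H3K27me3 by label -0.46 (14 higher), RNA-Pol2 0.00 (16 lower), the library labelled EedcKO H3K27ac against wild type H3K27me3 0.00 (14 lower, 3 higher) and the library labelled EedcKO H3K27me3 against wild type H3K27ac -1.29 (39 lower, 7 higher). Eed then had 14 higher. With the same median of all promoters, the ratios to the control had medians of 1.61 (51 above) for wild type H3K27me3, 1.10 for H3K27ac, 0.72 for RNA-Pol2 and 2.51 for Eed. In EedcKO they were 0.95 (33 above) for RNA-Pol2, 0.32 (6) for the library labelled H3K27me3 and 1.60 (43) for that labelled H3K27ac.

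With a pseudocount of 2 RPKM, Eed had a median of -1.39 (3 higher), RNA-Pol2 0.51 (7 higher) and EedcKO Eed was above input at 6 members. Under it 3 members were lower for the library labelled EedcKO H3K27me3 against wild type H3K27ac, 1 for IgG and 0 for input. With 0.1 RPKM, 5 members were above IgG in the library labelled EedcKO H3K27me3, 2 were higher for the library labelled EedcKO H3K27ac against wild type H3K27me3 and 3 lower for input. Without a filter on low values, 7 were lower for H3K27ac by label and 0 for input. With a mean of at least 5 RPKM, RNA-Pol2 had a median of 0.37 (2 lower, 6 higher), the library labelled EedcKO H3K27ac against wild type H3K27me3 0.11 and the library labelled EedcKO H3K27me3 against wild type H3K27ac -0.27 (3 lower), and 1 was lower for H3K27ac by label. Summits within 500 bp and within 5 kb of the window's centre were at 9 and 36 members for EedcKO Eed, 12 and 44 for wild type H3K27me3 and 14 and 39 for the library labelled EedcKO H3K27ac. With a score of at least 10, summits were at 0 members for EedcKO Eed, 11 for wild type H3K27me3, 0 for the library labelled EedcKO H3K27me3, 2 for wild type H3K27ac, 11 for the library labelled EedcKO H3K27ac, 1 for wild type RNA-Pol2 and 13 for EedcKO RNA-Pol2. An alternative chosen after seeing the data kept the 58 members whose window overlaps no other annotated window. Under it 7 members were above IgG for EedcKO RNA-Pol2, 5 above input for EedcKO Eed and 0 above IgG for the library labelled EedcKO H3K27me3, 1 was lower for H3K27ac by label, and summits were at 0 members for the library labelled EedcKO H3K27me3 and 9 for wild type H3K27ac. Beyond what each alternative's own construction shows, the cause was not tested. With 1 library per group, no difference can be set against the spread between embryos, and low windows such as Robo1 or Sema3a hold too few counts for small differences to be detectable.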
